A study of Mus musculus with 2 samples.

Results

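The CC chemokine genes followed here were Ccl2, Ccl5, Ccl7, Ccl8, Ccl9, Ccl11, Ccl20, Ccl25 and Ccl27a. They were chosen by name, as 9 of the 44291 genes in the expression tables, and all 9 were found. The data come from 2 RNA-seq libraries of primary FAPs (fibro-adipogenic progenitors) of the mouse, mesenchymal cells of skeletal muscle that can form adipocytes and fibroblasts. One library was from FAPs given platelet-rich plasma (PRP) and the other from FAPs given vehicle, called control here. Both were labelled WT, and both cultures were then kept in adipogenic induction medium. It was DMEM containing insulin at 10 μg/ml, dexamethasone at 0.25 μM, the phosphodiesterase inhibitor IBMX at 0.5 mM and FBS at 20%. Per the methods of the study, FAPs were sorted from both hind limbs of C57BL/6 mice, which were bought at 6 to 8 weeks of age. PRP is the treatment given in the labels, while the study's text speaks of exosomes from PRP of young human donors for this experiment. There was 1 library per group, so no difference has a replicate check and no p-value is given. Whether the libraries came from separate animals is not stated in the labels.

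CC chemokines are small secreted proteins that draw leukocytes along gradients through receptors of the G protein-coupled class. Their name comes from the pair of adjacent cysteines near the start of the mature protein, which anchor its disulphide bonds. Ccl2 and Ccl7 attract monocytes through Ccr2, Ccl8 is a close relative of both, and Ccl11 (eotaxin) attracts eosinophils through Ccr3. Ccl5 (RANTES) acts on T cells and monocytes, Ccl9 is a Ccr1 ligand of myeloid cells, Ccl20 acts through Ccr6, Ccl25 through Ccr9 and Ccl27a through Ccr10. In injured muscle, stromal cells are a known source of monocyte-attracting chemokines, and glucocorticoids such as the dexamethasone in this medium are known to repress many inflammatory genes.

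The shared cysteine pair can be read in the coding sequences. For each gene, 30 coding bases of one GENCODE M21 transcript are shown 5′ to 3′, with the adjacent cysteine codons in capitals, because this pair defines the family that the members belong to.
Ccl2: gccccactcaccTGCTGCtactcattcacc
Ccl7: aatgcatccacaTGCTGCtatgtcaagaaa
Ccl8: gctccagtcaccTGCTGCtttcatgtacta
Ccl11: atcccaacttccTGCTGCtttatcatgacc
Ccl5: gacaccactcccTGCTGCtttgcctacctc
Ccl9: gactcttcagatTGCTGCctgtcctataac
Ccl20: agcaactacgacTGTTGCctctcgtacata
Ccl25: gcctttgaagacTGCTGCctgggttaccag
Ccl27a: tccagcactagcTGCTGTactcagctctat
In 8 of the 9 genes the first cysteine of the pair was encoded between codons 30 and 34, and in Ccl9 at codon 57 of 122. The pair lay in the second exon of 7 transcripts and in the third exon of those of Ccl9 and Ccl25. On GRCm38 (mm10) the windows shown are chr11:82036494-82036523 for Ccl2, chr11:82046526-82046555 for Ccl7, chr11:82116044-82116073 for Ccl8 and chr11:82061684-82061713 for Ccl11, all on the plus strand. Those of Ccl20 (chr1:83117801-83117830) and Ccl25 (chr8:4353885-4353914) are also on the plus strand. Those of Ccl5 (chr11:83529230-83529259), Ccl9 (chr11:83575914-83575943) and Ccl27a (chr4:41769933-41769962) are on the minus strand. No junction between exons falls inside any of these windows. Over the aligned coding bases, Ccl2 and Ccl7 were the most alike of all pairs of members, at 69.1% identity over 291 bases. Ccl11 and Ccl2 followed at 68.4%, and Ccl2 and Ccl8 at 67.8%.

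Long exact stretches shared with other genes were searched for, because reads from them cannot be placed. For 7 of the members, no run of 50 bases of any M21 transcript was found in the transcripts of another gene. Ccl27a differed, since 45.0% of its runs of 50 bases also occurred in transcripts of 5 other genes, Ccl27b among them. In Ccl9, 1.97% of the runs were shared, in 59 runs spread over 250 other genes. Ccl25 shared 204 of its 7445 exonic bases with Elavl1 on the opposite strand, and Ccl27a shared 8 of 2377 with Il11ra1. The library kit was stranded, but whether reads were counted by strand is not stated in the sources used here. Elavl1 itself stood at 3.36 FPKM with PRP and 3.29 in the control.

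The expression values are FPKM, that is read numbers scaled for exon length and sequencing depth, in the form the authors deposited. They corresponded to 40120843 assigned reads with PRP and 34139741 in the control. Read numbers per gene could be recovered from them, and intervals were computed on pairs of reads (fragments). Those of ratios are exact Clopper-Pearson 95% intervals, and those of a single FPKM value are exact Poisson 95% intervals. These intervals cover counting error only and compare these 2 libraries, not the treatments. The log2 fold change is log2(PRP FPKM + 1) minus log2(control FPKM + 1), which understates differences of genes with low values. A gene is called tested, that is compared with the 2-fold threshold, where its mean FPKM was at least 1, which held for 13401 genes and for 6 of the 9 members, Ccl2, Ccl7, Ccl8, Ccl9, Ccl11 and Ccl25. In bulk RNA, fewer cells of a type and less RNA per cell cannot be told apart.

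FAP identity was visible in the libraries. Of 10 FAP markers, 9 reached a mean FPKM of 1, among them Pdgfra at 19.8 FPKM with PRP and 28.0 in the control, and Ly6a (Sca-1) at 59.9 and 66.4. Lum was near 0 in both libraries, with 0.0815 and 0.0718 FPKM.

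Ccl2 and Ccl7 carried most of the CC chemokine mRNA in both libraries. Together they made up 83.7% of the summed FPKM of the 9 members with PRP and 78.2% in the control. The sum over all members was 137 FPKM with PRP and 95.7 FPKM in the control, a ratio of 1.43. Without Ccl2 and Ccl7 the sums were 22.3 and 20.9 FPKM, a ratio of 1.07, so the difference in the total lay almost wholly in this pair.

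**Figure D1:**
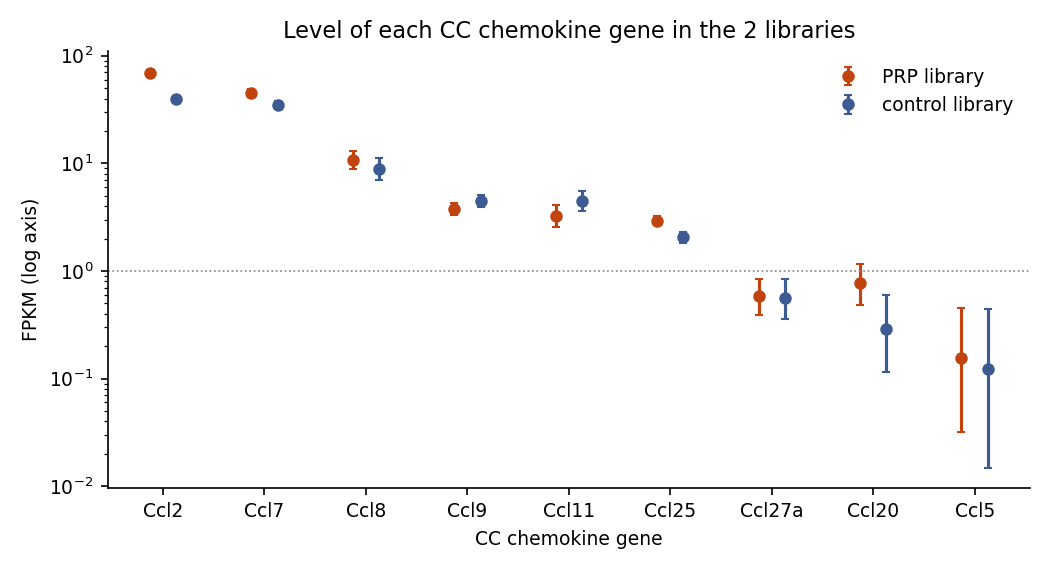
FPKM of each of the 9 genes with PRP (orange) and in the control (blue) on a log axis, with exact Poisson 95% intervals for counting error and a dotted line at 1 FPKM. Ccl2 and Ccl7 stand above all other members in both libraries, and Ccl27a, Ccl20 and Ccl5 lie under 1 FPKM.

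Ccl2 (ENSMUSG00000035385, chr11:82035571-82037453, plus strand), the main monocyte attractant of the family, had 69.2 FPKM with PRP and 39.8 FPKM in the control, from 3161 and 1545 reads. It was 1.74 times higher with PRP (95% interval 1.60 to 1.90), a log2 fold change of 0.78. Of all genes tested, 96.7% had a lower log2 fold change. Ccl2 ranked 781st by FPKM among all genes with PRP and 1343rd in the control. No other tested member had a ratio as high.

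Ccl7 (ENSMUSG00000035373, chr11:82045712-82047525, plus strand), which acts on the same receptor, had 45.5 FPKM with PRP and 35.1 FPKM in the control, from 1463 and 959 reads. Its ratio was 1.30 (1.16 to 1.46) and its log2 fold change 0.37. In the control library the counting intervals of Ccl2 and Ccl7 met, at 37.0 to 42.7 FPKM for Ccl2 and 32.0 to 38.4 FPKM for Ccl7. In the PRP library they were apart, and Ccl2 exceeded Ccl7 by 1.52 times there against 1.13 times in the control.

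Ccl8 (ENSMUSG00000009185, chr11:82115185-82116799, plus strand) was the third member by level in both libraries. It had 10.8 FPKM with PRP and 8.88 FPKM in the control, from 222 and 155 reads, a ratio of 1.22 whose interval of 0.904 to 1.65 included no change. Ccl11 (ENSMUSG00000020676, chr11:82057823-82062955, plus strand) lay lower in the PRP library, at 3.27 against 4.49 FPKM, from 142 and 166 reads. Its ratio of 0.728 also had an interval that reached no change (0.523 to 1.01). The order of Ccl8 over Ccl11 was the same in both libraries, by 3.31 times with PRP and 1.98 times in the control.

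Ccl9 (ENSMUSG00000019122, chr11:83572919-83578636, minus strand) was the other tested member with a lower value in the PRP library. It had 3.77 FPKM with PRP and 4.48 FPKM in the control, from 460 and 466 reads, a ratio of 0.840 (0.697 to 1.01). Neither Ccl9 nor Ccl11 could be told from an equal level on counting error. When reads were not divided into pairs, or after rescaling without mitochondrial and top genes, both intervals lay below 1, with upper bounds of 0.958 and 0.989 for Ccl9 and 0.916 and 0.989 for Ccl11.

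Ccl25 (ENSMUSG00000023235, chr8:4325210-4360020, plus strand), a chemokine known from thymus and small intestine, had 2.94 FPKM with PRP and 2.05 FPKM in the control, from 879 and 521 reads. The ratio was 1.44 (1.23 to 1.68) and the log2 fold change 0.37. Its exons add up to 7445 bases in M21, against 511 to 3045 in the other 8 genes, so its FPKM spreads the reads over a long model, and the values do not show which transcript they came from.

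Ccl20 (ENSMUSG00000026166, chr1:83116766-83119167, plus strand), the Ccr6 ligand, had the highest ratio of the 9 at a low level. It had 0.772 FPKM with PRP and 0.289 FPKM in the control, from 44 and 14 reads, a ratio of 2.67. The interval of 1.10 to 7.41 lay above no change and was wide. Because of the added pseudocount its log2 fold change was only 0.46, and 1.17 with a pseudocount of 0.1, and its mean FPKM of 0.530 kept it out of the genes tested.

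Ccl27a (ENSMUSG00000073888, chr4:41769467-41774247, minus strand) differed little, with 0.587 FPKM and 56 reads with PRP against 0.567 FPKM and 46 reads in the control. The ratio of 1.04 had an interval of 0.575 to 1.88. With the reads of the 5 genes that share sequence with it added, the ratio was also 1.04 (0.662 to 1.63). Among these genes, Gm21953 and Ccl27b gave no whole read numbers. The sums of 93.7 and 77.0 reads were therefore not whole, and this interval is approximate. Gm21953 had 1.58 and 0.556 FPKM, and Gm20878 0.257 and 0.472 FPKM. Ccl5 (ENSMUSG00000035042, chr11:83525778-83530518, minus strand) was close to the limit of detection, at 0.156 FPKM from 6 reads with PRP and 0.122 FPKM from 4 reads in the control. Its interval of 0.146 to 15.3 shows that no difference of usual size was detectable at this depth. Ccl2 exceeded Ccl5 by 444 times with PRP and 326 times in the control on the FPKM scale.

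**Figure D2:**
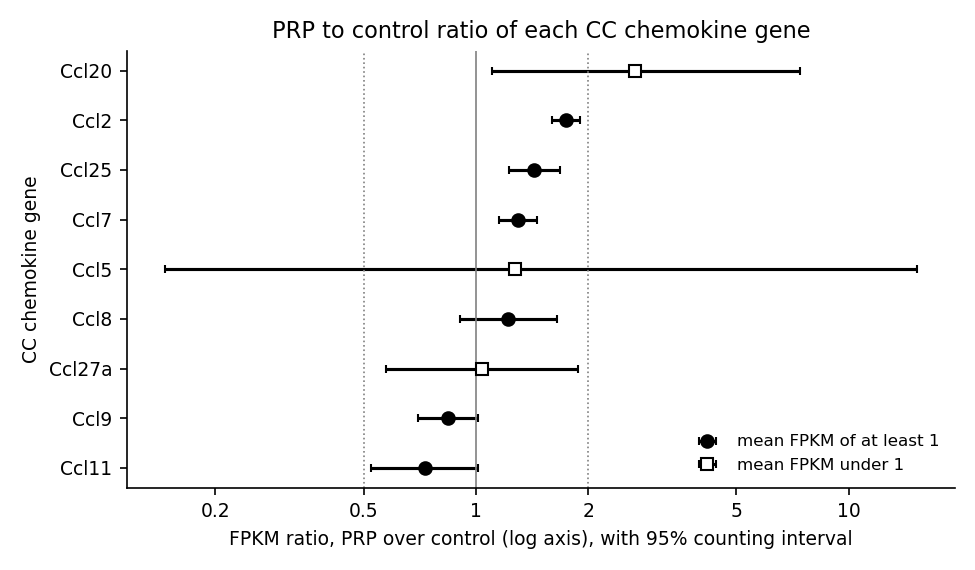
Ratio of PRP FPKM to control FPKM for each gene on a log axis, with 95% counting intervals, a solid line at no change and dotted lines at 2-fold. The intervals of Ccl2, Ccl7, Ccl25 and Ccl20 lie above 1, those of the other 5 genes include 1, and the intervals of Ccl5 and Ccl20 are the widest.

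The order of levels was the same for the first 3 genes in both libraries, Ccl2, Ccl7 and Ccl8. With PRP, Ccl9, Ccl11 and Ccl25 followed, with overlapping intervals between neighbours, and then Ccl20, Ccl27a and Ccl5, again with overlapping intervals between neighbours. In the control library Ccl11 and Ccl9 had nearly the same level (4.49 and 4.48 FPKM). Ccl25 stood apart below them, and Ccl27a, Ccl20 and Ccl5 followed with overlapping intervals between neighbours.

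None of the 6 tested members was at least 2-fold higher or lower, beside 2.00% of all genes tested that were at least 2-fold higher and 0.828% that were at least 2-fold lower. With PRP, 4 of the 6 were higher and 2 lower than in the control, beside 6815 higher and 6586 lower of all 13401 genes tested. The median log2 fold change of the 6 members was 0.31, beside 0.01 for all genes tested. The counting interval lay above no change for 3 of the 6, Ccl2, Ccl7 and Ccl25, beside 26.1% of the 12369 genes tested that had whole read numbers. It lay below no change for 0 of the 6, beside 26.1% of those genes. With Ccl20 and the other low members it lay above no change for 4 of 9, beside 14.6% of the 26406 genes of any level above 0 with whole reads. At this depth an interval that excludes no change was thus common, and 3 of 6 rests on few genes.

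**Figure D3:**
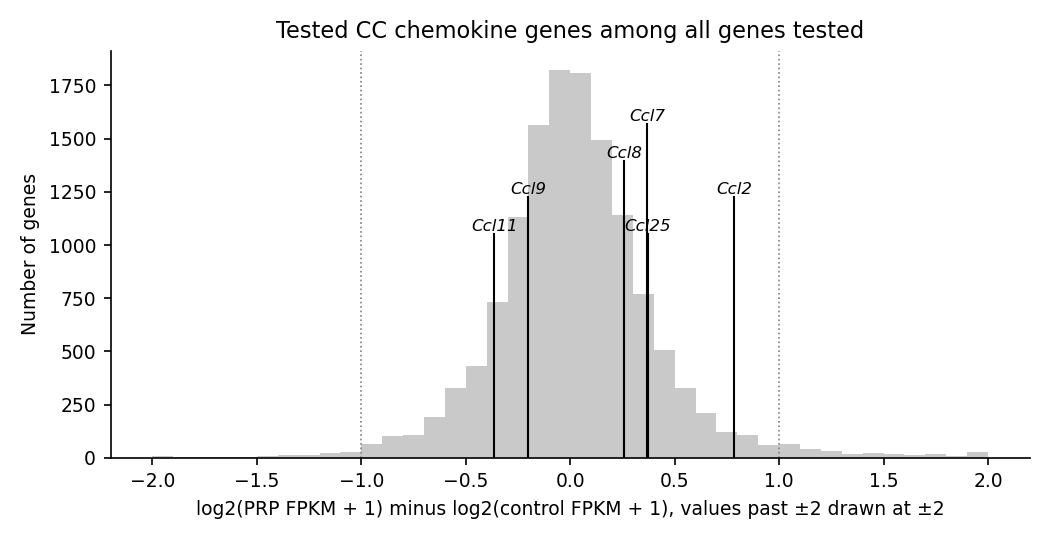
Number of genes by log2 fold change for the 13401 genes tested (grey bars), with a vertical line for each of the 6 tested CC chemokine genes and dotted lines at 2-fold. Ccl2 lies in the upper part of the distribution at 0.78, Ccl7 and Ccl25 nearly coincide at 0.37, and Ccl9 and Ccl11 lie below 0.

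The members were also set against each other, since the ratio of 2 genes within a library does not depend on how the libraries were scaled. These intervals are exact conditional intervals of the odds ratio. Among the 15 pairs of tested members, the ratio of their PRP to control ratios had a 95% counting interval that excluded 1 in 11 pairs, without adjustment for the number of pairs. The share among pairs of other genes was not computed, so this count is a description of the members alone. All 5 pairs with Ccl2 were among them. The PRP to control ratio of Ccl2 was 1.34 times that of Ccl7 (1.16 to 1.55) and 2.39 times that of Ccl11 (1.70 to 3.37). That of Ccl25 was close to that of Ccl7, with Ccl7 at 0.904 times Ccl25 (0.742 to 1.10). Ccl9 and Ccl11 were not distinguishable from each other (1.15, 0.788 to 1.69), whereas both were below Ccl25, by ratios of 0.585 (0.457 to 0.747) and 0.507 (0.351 to 0.732).

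Of the 9 genes, 6 lie in 2 blocks on chromosome 11. The first block spans 270 kb and holds Ccl2, Ccl7, Ccl11, Ccl12, Ccl8 and Ccl1 in this order. Its levels were uneven, since Ccl12, which lies between Ccl11 and Ccl8, had 0 reads with PRP and 2 in the control, and Ccl1 was listed at 0 in both libraries. The second block spans 139 kb and holds Ccl5, Ccl9, Ccl6, Ccl3 and Ccl4. Ccl6, the neighbour and close relative of Ccl9, had 0.597 FPKM with PRP and 0.718 in the control (ratio 0.832, 0.437 to 1.58). Ccl3, a Ccr1 ligand, had 0 and 6 reads, and Ccl4 was listed at 0 in both. Both Ccl9 and Ccl6 thus had the lower value in the PRP library, with intervals that included no change.

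**Figure D4:**
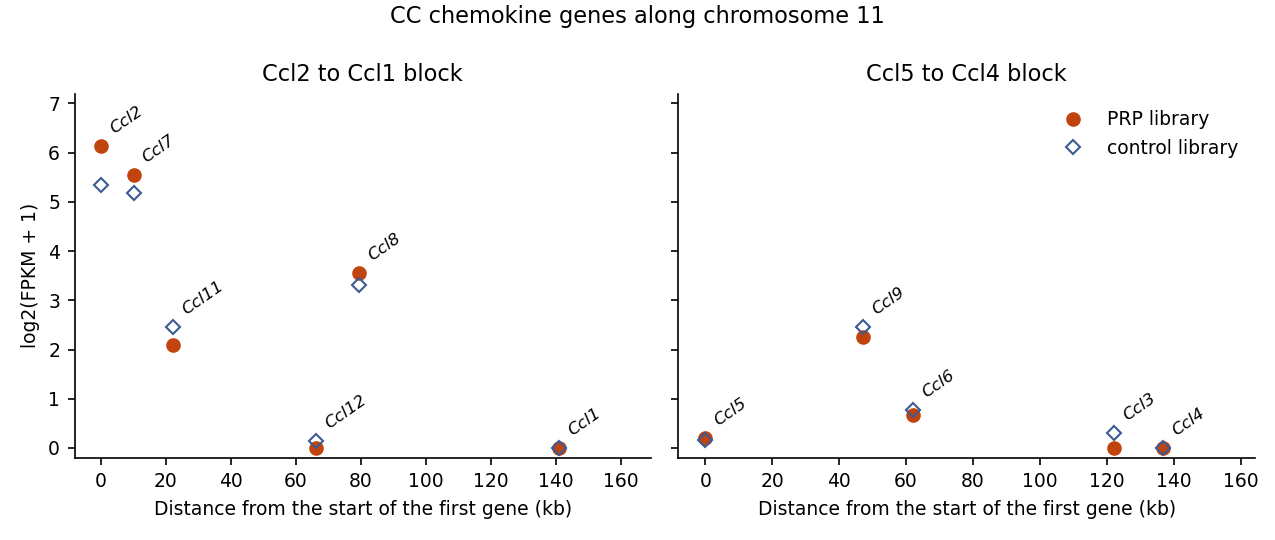
Level of each CC chemokine gene of the chromosome 11 blocks as log2(FPKM + 1), in the PRP library (filled circles) and the control library (open diamonds), against distance in kb from the start of the first gene. In the first block Ccl2, Ccl7 and Ccl8 are high beside Ccl12 and Ccl1 near or at 0, and in the second block only Ccl9 exceeds 1 on this scale.

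The genes around the blocks showed the following values. The nearest tested genes that are not chemokines were Tmem98 (7.33 FPKM with PRP and 9.33 in the control, 1214 kb before the first block) and Zfp830 (35.8 and 27.2, 459 kb after it). Taf15, which encodes an RNA-binding protein, lies 19.0 kb before the second block and had 178 and 151 FPKM, a ratio of 1.18 (1.14 to 1.21), while Ccl5 beside it was near 0. The pseudogene Atp5k-ps3, 16.9 kb after it, had 4 and 10 reads. The third block, on chromosome 4, holds Ccl27a with Ccl21d, Ccl21b, Ccl27b, Ccl19 and Ccl21a. It is flanked by Galt (2.42 and 2.17 FPKM) and Dnajb5 (2.10 and 2.30 FPKM), whose intervals both included no change.

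Of 15 further CC chemokine genes in the tables, none had a mean FPKM of at least 1. Besides Ccl6, Ccl12 and Ccl3, reads were found for Ccl28, a mucosal Ccr10 ligand, at 0.144 and 0.103 FPKM from 28 and 17 reads. Ccl21a had 4 reads with PRP and 2 in the control, Ccl21d 0 and 2, and Ccl17 2 and 0, while Ccl27b had 0.119 and 0.0701 FPKM without whole read numbers. The other 7, Ccl1, Ccl4, Ccl19, Ccl21b, Ccl22, Ccl24 and Ccl26, were listed at 0 in both libraries. A count of 0 allows up to 3 fragments, which corresponds to between 0.0631 and 0.623 FPKM for these genes. T cell, dendritic cell and lymphoid-tissue chemokines such as Ccl17, Ccl19 and Ccl22 were therefore at or near the limit of detection.

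The receptors of the members were scarce. Of 10 CC chemokine receptor genes in the tables, none had a mean FPKM of at least 1. Ccr10, the Ccl27a receptor, was the highest at 0.722 FPKM with PRP and 0.509 in the control, from 50 and 30 reads (ratio 1.42, 0.719 to 2.89). Ccr9, the Ccl25 receptor, had 36 and 30 reads, or 0.0875 and 0.0856 FPKM. Ccr2, through which Ccl2 and Ccl7 act, had 2 reads in each library, and so did Ccr3, the Ccl11 receptor. Ccr1, Ccr6 and Ccr7 had 2 reads with PRP and 0 in the control, and Ccr4 had 0 and 2. Ccr1l1 was listed at 0, where a count of 0 allows up to 0.151 FPKM. Per length, Ccl2, Ccl7, Ccl8 and Ccl11 thus stood far above Ccr2 and Ccr3, whereas Ccl27a and Ccr10 lay at similar low levels.

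Atypical receptors bind chemokines without the usual signal, and several of them remove chemokines from the surroundings. Ackr4, which takes up Ccl19, Ccl21 and Ccl25, had 1.10 FPKM with PRP and 1.23 in the control (ratio 0.892, 0.684 to 1.17). Ackr3, which binds Cxcl12 rather than CC chemokines, had 1.38 and 0.945 FPKM (1.47, 1.04 to 2.09). Ackr1 and Ackr2, both scavengers of many CC chemokines, were listed at 0 in both libraries. A count of 0 allows up to 0.125 FPKM for Ackr1 and 0.0562 FPKM for Ackr2. Ccrl2 had 20 and 6 reads, a ratio of 2.84 whose interval of 0.730 to 16.0 included no change.

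Sequence before the start sites was available in RefSeq promoter entries (GRCm38.p6) for 5 of the 9 members, Ccl8, Ccl9, Ccl20, Ccl25 and Ccl27a. The 250 bases before the start are shown for Ccl20, which had the highest ratio, and for Ccl8 and Ccl9, a higher and a lower member of the chromosome 11 blocks. Capitals mark letters that match, on either strand, the kappa-B consensus, TGANTCA (the AP-1 element) or TATAAA.
Ccl20 promoter: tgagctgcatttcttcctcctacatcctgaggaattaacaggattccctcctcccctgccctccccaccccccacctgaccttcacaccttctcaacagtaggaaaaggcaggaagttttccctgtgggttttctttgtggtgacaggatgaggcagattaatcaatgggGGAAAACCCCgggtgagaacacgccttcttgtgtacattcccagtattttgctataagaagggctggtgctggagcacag
Ccl8 promoter: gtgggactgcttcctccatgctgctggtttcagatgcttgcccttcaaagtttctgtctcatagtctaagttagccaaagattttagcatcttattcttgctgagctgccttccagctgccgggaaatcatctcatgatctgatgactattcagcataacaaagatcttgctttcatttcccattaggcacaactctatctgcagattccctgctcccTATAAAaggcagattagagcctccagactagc
Ccl9 promoter: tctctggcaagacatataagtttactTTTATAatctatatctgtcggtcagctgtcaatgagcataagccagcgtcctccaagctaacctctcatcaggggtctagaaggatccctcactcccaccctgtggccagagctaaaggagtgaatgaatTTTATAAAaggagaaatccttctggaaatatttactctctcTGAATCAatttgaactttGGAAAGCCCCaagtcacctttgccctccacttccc
These stretches are chr1:83116516-83116765 on the plus strand for Ccl20, chr11:82114935-82115184 on the plus strand for Ccl8 and chr11:83578637-83578886 on the minus strand for Ccl9. In Ccl20 the kappa-B match covers bases -80 to -71 from the start, on the opposite strand. In Ccl8, TATAAA covers bases -32 to -27. Ccl9 holds a kappa-B match on the opposite strand at -35 to -26 and TGAATCA at -53 to -47. It also holds TATAAA at -92 to -87, with an overlapping match on the opposite strand at -94 to -89, and a further opposite-strand match at -224 to -219.

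Over windows of 300 bases, with 50 bases after the start, a kappa-B match was found in 3 of the 8 entries of the members, 1 each of Ccl20, Ccl9 and Ccl27a. The share among all 32851 promoter entries was 8.46%. The match of Ccl27a was in 1 of its 3 entries and lay after the start, at bases 30 to 39. TGANTCA was found in Ccl9 and in 1 of 3 entries of Ccl27a, beside 7.81% of all entries, and TATAAA in Ccl8, Ccl9 and 1 of 2 entries of Ccl25, beside 13.6%. GAAANNGAA, the core of the interferon-stimulated response element, was in none of the 8 entries, beside 8.56% of all. The entries of Ccl25 differed in composition, with 74.8% G or C and 45 CG pairs in the 250 bases before one start and 51.6% and 0 CG pairs before the other. Of these 2 starts, TATAAA was found before the second. The members with a kappa-B match had ratios of 2.67 (Ccl20), 0.840 (Ccl9) and 1.04 (Ccl27a). A match is a match of letters and not a measured binding site.

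Genes known to control chemokine transcription were taken from lists written with earlier results of these data known. Of 23 tested NF-kB, AP-1, IRF and STAT regulators, 20 were higher and 3 lower with PRP. Their median log2 fold change was 0.36, beside 0.01 for all genes tested. Among all 13401 genes tested, 6815 were higher and 6586 lower, which is also the background for the lists that follow. At least 2-fold higher were 4 of the 23, beside 2.00% of all genes tested, and none was at least 2-fold lower. The 3 with the largest log2 fold change were Irf7, a transcription factor of the interferon response (11.6 and 3.18 FPKM, ratio 3.65, 3.13 to 4.27), Fosl1, an AP-1 subunit, and Nfkbie, an NF-kB inhibitor. Fosl1 had 61.6 and 22.6 FPKM (2.72, 2.51 to 2.95). Nfkbie had 6.05 and 1.93 FPKM (3.13, 2.503 to 3.94).

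Among 17 tested inflammatory signals and their receptors, 12 were higher and 5 lower, with a median of 0.05. None was at least 2-fold higher or lower by the log2 fold change, which includes the pseudocount. By the plain FPKM ratio Ticam1 was more than 2-fold lower, while its log2 fold change was -0.64. Il6 had 3.83 and 2.09 FPKM (ratio 1.83, 1.41 to 2.40), Il17ra 8.10 and 5.46 FPKM (1.48, 1.36 to 1.62), and Ticam1, an adaptor of Toll-like receptors, 1.02 and 2.13 FPKM (0.476, 0.342 to 0.657). The repressors and mRNA decay factors split evenly, with 7 of 14 higher and 7 lower and a median of 0.01. Tnfaip3 (A20), a feedback inhibitor of NF-kB, was the only one at least 2-fold higher, at 5.88 and 1.32 FPKM (4.45, 3.76 to 5.30). This is 1 gene of 14, beside 2.00% of all genes tested. Tnip1, its binding partner, had 50.8 and 32.5 FPKM (1.56, 1.48 to 1.65). Fkbp5, a gene induced by glucocorticoids, had 7.62 and 12.4 FPKM (0.614, 0.574 to 0.658).

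Secreted chemokines are held on heparan sulphate and trimmed by proteases. Of 12 tested genes of this kind, 4 were higher and 8 lower with PRP, and the median was -0.32. Mmp3 (stromelysin 1) had 30.6 and 9.89 FPKM (ratio 3.09, 2.72 to 3.52). It was the only one at least 2-fold higher, 1 gene of 12, beside 2.00% of all genes tested. Mmp13 had 3.95 and 2.28 FPKM (1.73, 1.37 to 2.22), and Mmp2 (gelatinase A), which can cut Ccl7, had 79.6 and 117 FPKM (0.678, 0.654 to 0.703).

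The CXC chemokine genes were the family most like the members. Of 7 tested CXC genes, 5 were higher and 2 lower. At least 2-fold higher were 4 of the 7, against 0 of the 6 tested CC genes and 2.00% of all genes tested. The median log2 fold change of the CXC genes was 1.28, beside 0.31 for the CC genes. Of the 4, Cxcl2 and Cxcl9 (2.56 and 0.466 FPKM) were under 1 FPKM in the control. They passed the filter only through the PRP library, where they were high. Both the count and the median of the CXC genes therefore depend on this filter. Cxcl1, a neutrophil attractant, had 34.2 and 5.06 FPKM (ratio 6.75, 5.73 to 8.004), Cxcl2 had 4.51 and 0.255 FPKM (17.7, 9.12 to 39.3), and Cxcl5 had 10.5 and 2.97 FPKM (3.53, 2.82 to 4.47). The lower bounds of these 3 ratios exceeded the upper bound of the ratio of Ccl2, which was 1.90. Cxcl12, the highest CXC gene in the control, was lower with PRP, at 18.2 and 33.7 FPKM (0.539, 0.514 to 0.564). Whether the families differ cannot be tested with 1 library per group.

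**Figure D5:**
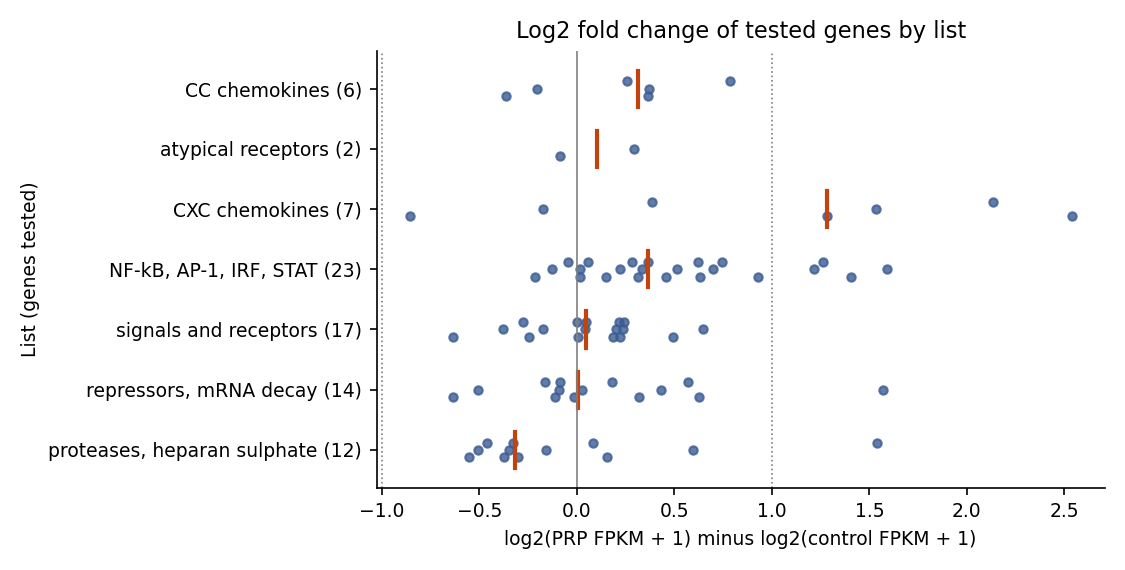
Log2 fold change of each tested gene (points) by list, with the median of the list as a vertical bar, the number of genes tested in parentheses and dotted lines at 2-fold. The CC chemokines lie between -0.36 and 0.78 with a median of 0.31, and the CXC chemokines lie between -0.86 and 2.54.

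Leukocytes also make CC chemokines, so their markers were read in both libraries. Of 15 leukocyte and macrophage markers, 3 reached a mean FPKM of 1, of which 1 was higher and 2 were lower with PRP. The summed level of the 15 was 14.3 FPKM with PRP and 12.7 in the control. Ptprc (CD45), which all leukocytes carry, was near 0 at 0.0109 and 0.0192 FPKM, and Adgre1 (F4/80) at 0.0308 and 0.0543. Csf1r (0.596 and 0.457 FPKM) and Cd14 (0.835 and 0.440 FPKM) stood higher than these, with intervals that included no change. Cd68 had 4.56 and 2.31 FPKM (ratio 1.98, 1.41 to 2.82), Lyz2 4.91 and 7.57 FPKM (0.648, 0.512 to 0.820), and S100a9 18 and 22 reads. Below the level for testing, S100a8, the partner of S100a9, had 47 and 2 reads (ratio 20.0, 3.25 to 823) and Fcer1g 14 and 0. Over all 15 markers at any level, the interval lay above no change for 3 and below it for 1. Of the 26406 genes of any level with whole reads, it lay above for 3862 (14.6%) and below for 3664. The part of these cells in the CC chemokine values was not tested.

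Endothelial markers summed to 10.1 FPKM with PRP and 6.05 in the control. Kdr (4.23 and 1.499 FPKM, ratio 2.82, 2.43 to 3.28) and Tek (4.73 and 3.56 FPKM, 1.33, 1.14 to 1.55) were the 2 tested of 10. Pecam1 (CD31) had 0.188 and 0.0470 FPKM (ratio 3.999, 1.49 to 13.4). Vwf had 93 and 46 reads and Esam 18 and 2. Cdh5 was near 0 at 0.0949 and 0.0976, and Cldn5 was listed at 0 in both. At any level, the interval lay above no change for 5 of the 10 endothelial markers, Kdr, Tek, Pecam1, Vwf and Esam. It lay below no change for 0 of them. Among the 26406 genes of any level with whole reads, it lay above no change for 14.6%. Epithelial markers summed to 23.3 and 15.9 FPKM, with 2 of 3 tested genes higher. Most of it was Krt19 (19.7 and 11.3 FPKM), beside Krt14 (1.93 and 2.52) and Krt5 (1.11 and 0.893), and Epcam had 4 and 11 reads. Krt8 had 18 and 40 reads (ratio 0.383, 0.154 to 0.880) and Krt18 18 and 22 (0.696, 0.255 to 1.85). Over all 8 epithelial markers at any level, the interval lay above no change for 1 and below it for 1. Of the 26406 genes of any level with whole reads, it lay above for 3862 and below for 3664.

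Adipocyte markers summed to 60.1 and 50.5 FPKM, with 4 of 5 tested genes higher and 1 lower. Fabp4 stood at 40.7 and 33.6 FPKM (ratio 1.21, 1.15 to 1.27) and Pparg at 8.69 and 6.55 (1.33, 1.15 to 1.53). The intervals of Cfd (2.92 and 2.22 FPKM), Adipoq (5.49 and 5.22) and Plin1, the perilipin gene with the lower value under PRP (1.73 and 2.10), all included no change. Retn had 20 and 28 reads and Lep 2 and 6. Of 3 tested myogenic markers 1 was higher, with Acta1 at 15.1 and 11.1, Des at 2.91 and 3.39 and Ckm at 3.56 and 3.72 FPKM, and Pax7 and Myog were listed at 0. Myh3, below the level for testing, had 68 and 26 reads (2.23, 1.14 to 4.60). Over the 7 myogenic markers at any level, the interval lay above no change for 2 and below it for 0. Of the 26406 genes of any level with whole reads, it lay above for 3862 (14.6%) and below for 3664. All 9 tested FAP markers were lower with PRP, and their median log2 fold change was -0.37. The largest differences were those of Col3a1 (26.9 and 53.7 FPKM), Col1a1 (119 and 219 FPKM) and Pdgfra. The part of these shifts in the values of Ccl2 and the other members was not tested.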

How the data were processed

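RNA-seq was performed on 2 libraries, 1 from PRP-treated and 1 from control FAPs. TRIzol extraction and a stranded mRNA kit were used per the labels, and reads were processed with fastp 0.23.4, STAR 2.5.3a and featureCounts on mm10. The deposited values are FPKM per gene, computed by the authors. The annotation release is not given in the sources used here. Of 44291 genes, 41492 (93.7%) matched GENCODE M21. With its exon lengths, 93.8% of the detected genes of known length gave whole reads in both libraries within 0.001 reads, for totals of 40120843 (PRP) and 34139741 (control). Even numbers made up 79.3% and 80.3% of the genes with up to 8 reads, as when both mates of a pair are counted, so intervals used reads divided by 2. PCR duplicates are not accounted for.

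The log2 fold change used a pseudocount of 1, and genes tested had a mean FPKM of at least 1. Pairs of members were compared by the exact conditional interval of the odds ratio of their fragments, rounded down to whole fragments, a comparison added after the values were seen. No test for counts was run, because each group has 1 library. The members and gene lists were chosen with earlier results of these data known. Genes named are the members, other CC chemokine genes and receptors above 0, in each other list the 3 tested genes with the largest absolute log2 fold change, the nearest tested genes beside the blocks, and defining cell type markers. Other genes named were chosen after their values were seen. Blocks join CC chemokine genes that lie less than 500 kb apart. Promoters were from RefSeq (GRCm38.p6), searched on both strands. Protein features were not analysed here. Alternatives were pseudocounts of 0.1 and 5, other filters, thresholds and scalings, undivided reads, and the sum of Ccl27a with its copies. Procedures were tested on simulated data. Biopython 1.88, SciPy 1.17.1, NumPy 2.4.6, matplotlib 3.10.9 and pandas 2.3.3 ran under Python 3.11.15.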

Additional observations from a re-analysis of the deposited data

How the results depend on the processing

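No paired analysis was possible because neither group holds more than 1 library, and for the same reason no library could be left out. Settings were varied 1 at a time. Among members that passed the filter in use, the count at least 2-fold higher was 0 under each pseudocount, filter and scaling. It was also 0 at 4-fold, and 1 (Ccl2) at a 1.5-fold threshold. Ccl20, which the mean FPKM filter left out, was past 2-fold with a pseudocount of 0.1 (log2 fold change 1.17) and was not counted there. For the tested members, the median log2 fold change lay between 0.18 and 0.37 under the alternatives. The counting interval lay above no change for 4 of the 9 members, Ccl20 included, under each scaling and with undivided reads, beside 14.6% of all genes above 0 with whole reads in the reported setting. With undivided reads, and when mitochondrial and top genes were left out of the scaling, it lay below no change for 2, Ccl9 and Ccl11. The log2 fold change of each member kept its sign under each pseudocount and scaling. The number of all genes at least 2-fold higher or lower, 379, moved most. It was 1436 at 1.5-fold and 26 at 4-fold. Pseudocounts of 0.1 and 5 gave 739 and 113. Where only genes with a mean FPKM of 5 or more were kept, it was 210. A common sum for both libraries gave 596, and leaving mitochondrial and top genes out of that sum gave 638. These rescalings raise all values, so that the pseudocount weighs less. Depth limits Ccl5, Ccl20, Ccl27a and the receptors, whose values rest on few reads.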
